A study of Macaca mulatta with 64 samples.

Results

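The 3 genes described here, C1QC, CD74 and SERPING1, belong to the complement system and to antigen presentation. They were taken as every row that the deposited table of CAGE-seq start positions holds for these gene symbols, which gave 3 of 13269 genes and 101 of 160389 positions. The libraries came from healthy, socially housed rhesus macaques, for which no treatment is recorded other than the pentobarbital overdose used for euthanasia, which all groups shared, as they shared the draining of blood through the carotid artery. Each of the 64 libraries was a single combination of brain region, age and sex. The regions were cerebellar cortex (CB), the hippocampal fields CA1 and dentate gyrus (DG), and 5 neocortical areas, namely occipital (OC), parietal (PC), temporal (TC), prefrontal (PFC) and posterior cingulate (PCC) cortex. The ages were 1, 4, 10 and 20 yr, and a library existed for females and for males at every age. For each age and sex, 2 animals were studied. Per the study's text a library stood for such a pair of animals, and CAGE-seq was run on the samples also used for RNA-seq. Each age and sex is therefore called an animal group, with 8 libraries, 1 per region.

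The complement system is a cascade of plasma and tissue proteins that marks surfaces for removal. Its classical branch starts when C1q, a complex assembled from A, B and C chains, binds a target and activates the proteases C1r and C1s. In the brain C1q is made mostly by microglia and is known for marking synapses that are later removed. C1QC encodes the C chain of C1q. SERPING1 encodes C1 inhibitor, a serine protease inhibitor that inactivates C1r and C1s and so acts on the first step of the same branch. CD74 encodes the invariant chain, which escorts MHC class II molecules to the compartment where they load peptides, and in brain it is expressed chiefly by microglia and other macrophages.

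CAGE-seq sequences the 5′ ends of RNA, so a value belongs to a position in the genome. The deposited values are tags scaled to a common total per library (TPM), with no correction for gene length, and the level of a gene is here the sum over its positions. The lowest listed value of a library lay between 1 and 1.32 TPM, which from the spacing of the low values stood for 2 to 7 tags. This floor near 1 TPM was alike in deep and shallow libraries, so a gene given as 0 TPM is one not listed, and levels under the floor cannot be read from the table. The tags per library estimated from the same spacing ranged from 1509206 to 6095703. The number of genes listed varied far more, between 545 and 8143, and the 8 PCC libraries had the fewest positions (median 1720.5), followed by CB (3079), while CA1 had the most (11309). CBLN1 and CBLN3, made by cerebellar granule cells, were listed in 8 of 8 CB libraries and in 2 and 1 of the other libraries. Of 24 microglial markers, 12 had a position, and AIF1, CX3CR1, TMEM119 and PTPRC had none under those symbols. In bulk tissue, fewer cells of a type and less RNA per cell cannot be told apart.

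C1QC (ENSMMUG00000020756) lies on chromosome 1, at 25234179 to 25251518 of MMUL 1.0, on the plus strand. It was the most widely listed of the 3 genes, with 48 positions and a value in 49 of 64 libraries. Its level averaged 136.72 ± 331.32 TPM (SD, n = 64) with a median of 50.44 TPM, and the highest library reached 2456.29 TPM. SERPING1 (ENSMMUG00000012618) lies on chromosome 14, at 15800333 to 15818324, on the minus strand. It had 35 positions and was listed in 43 libraries, with a mean of 83.51 ± 109.1 TPM (SD, n = 64), a median of 40.19 TPM and a maximum of 470.61 TPM. CD74 (ENSMMUG00000009113) lies on chromosome 6, at 146878525 to 146887972, on the minus strand. It had 18 positions in 34 libraries, a mean of 41.31 ± 132.73 TPM (SD, n = 64), a median of 1.57 TPM and a maximum of 820.9 TPM. All 3 genes were listed together in 21 libraries, 2 of them in 25, 1 in 13 and none in 5. The SD exceeded the mean for every gene, and the levels of the 3 genes hardly went together. Over the 64 libraries, Pearson's r of log2(TPM + 1) was 0.17 for C1QC with CD74, 0.03 for C1QC with SERPING1 and 0.01 for CD74 with SERPING1, given as a description over libraries that share animals, regions and depth.

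The positions of the 3 genes were distributed in different ways along the annotated genes. CD74 had its leading position exactly at the annotated start, at 146887972. This position was listed in 26 libraries from all 8 regions, held 61.09% of the CD74 TPM summed over libraries, and was the highest CD74 position in 24 of the 34 libraries that listed the gene. In 26 of these 34 libraries (76.5%) CD74 had a single position, against 63.1% over all gene and library combinations. The remaining CD74 tags fell mainly in a group of 4 positions between 5299 and 5379 nt inside the gene, which held 29.94% of the total. Nearly all of that group (96.55%) came from the PC library of 20-yr-old females, where the position 146882673 had 764.24 TPM and was listed in no other library.

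C1QC had tags at both ends of the annotated gene. A group of 17 positions from 432 nt upstream of the annotated start to 175 nt inside it held 38.49% of the C1QC signal and was listed in 38 libraries. It was led by a pair of positions, 25233801 (378 nt upstream, 18 libraries, 859.55 TPM summed over libraries) and 25233830 (349 nt upstream, 17 libraries, 1129.87 TPM). A second wide group of 14 positions lay between 16767 and 17316 nt inside the gene, close to its annotated end, with 31.09% of the signal in 31 libraries. Its leading position, 25251415, was 103 nt short of the annotated end and was listed in 18 libraries with 1366.42 TPM in all. A further 29.65% fell between 3201 and 3627 nt inside, of which 94.68% was the value of the CB library of 10-yr-old females at 25237806. In the RefSeq gene order of assembly T2T-MMU8v2.0, C1QC is flanked by C1QA and C1QB, which encode the other C1q chains. Neither symbol had a position in the deposited table, where the genes listed on either side of C1QC were ENSMMUG00000020755, which has no symbol, and EPHB2. It could therefore not be checked whether the annotated interval of C1QC, 17340 nt long, also takes in tags of C1QB. The positions near its end are to be read with that limit.

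SERPING1 differed from the other genes in how little of its signal lay within 500 nt of the annotated start. The share was 1.46%, against 38.49% for C1QC and 65.54% for CD74. The single position 15813932, which is 4392 nt inside the gene, was listed in 27 libraries with 2926.87 TPM in all, which is 54.76% of the gene, and led in 22 of the 43 libraries that listed SERPING1. A spread of 26 positions between 67 and 661 nt inside the start was seen in 33 libraries and held 30.51%. The 500 nt limit cuts through this group, so the share of 1.46% depends on where the limit was set. A group of 4 positions between 2225 and 2302 nt inside held 7.57%. The exons and introns of MMUL 1.0 were not used here, so these positions are given by distance and not as exonic or intronic.

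**Figure D1:**
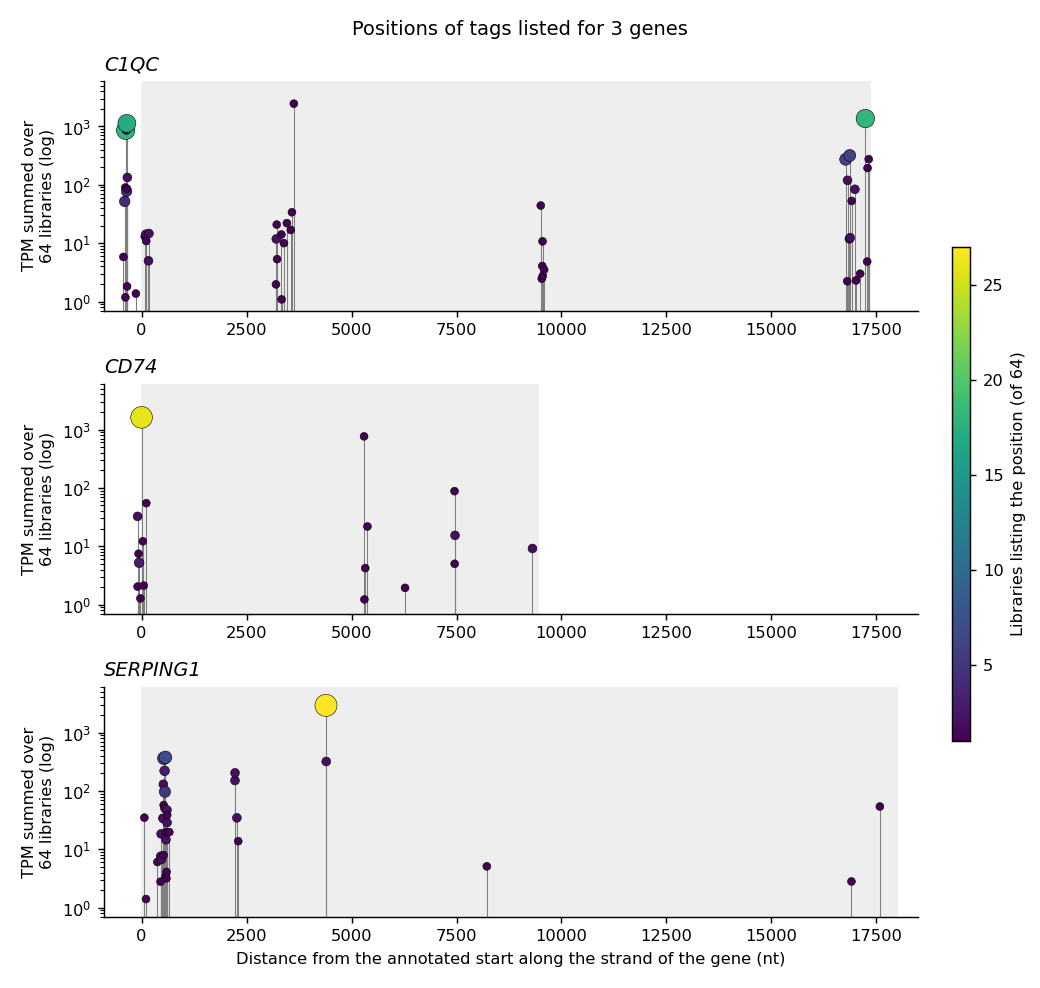
Positions listed for C1QC, CD74 and SERPING1, by distance from the annotated start along the strand of the gene (x axis, nt) and TPM summed over the 64 libraries (y axis, log scale). Color and point size give the number of libraries that list a position, and the grey band is the annotated gene. The most widely listed positions lie at the start for CD74 (26 libraries), 4392 nt inside for SERPING1 (27 libraries) and at both ends for C1QC (18, 17 and 18 libraries).

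Many positions of the 3 genes were seen only once. A single library listed 31 of 48 positions of C1QC, 13 of 18 of CD74 and 18 of 35 of SERPING1, against 74.3% over all positions. These positions held 38.79% of the C1QC signal and 36.55% of the CD74 signal, but 6.74% of that of SERPING1, against 13.36% over all genes. A few libraries accordingly carried much of the signal of C1QC and CD74. The CB library of 10-yr-old females held 28.07% of all C1QC TPM. The PC and PCC libraries of 20-yr-old females, at 820.9 and 668.17 TPM, together held 56.32% of CD74, and the next highest CD74 value was 169.82 TPM. For SERPING1 no library held more than the 8.81% of the OC library of 10-yr-old males.

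The widely listed positions were listed unevenly among the regions. This pattern was chosen after the values were seen and has no test. At C1QC the position 378 nt upstream was listed in 7 of 8 CA1 and 5 of 8 DG libraries, in 2 each of TC and OC, 1 each of PFC and PC, and in no CB or PCC library. The position 349 nt upstream was listed in none of the CA1 libraries and in 3 of 8 DG libraries, and in 5 TC, 4 PC, 4 OC and 1 PFC library. These counts are of exact nucleotides, which can shift by library because clusters were made within each sample. Neighbouring nucleotides were listed in some CA1 libraries. The CA1 library of 20-yr-old males had 85.83 TPM at 350 nt upstream and 83.28 TPM at 378 nt upstream, that of 1-yr-old females had 58.59 TPM at 356 nt and 2.46 TPM at 378 nt, and that of 10-yr-old females had 1.82 TPM at 345 nt and none at 378 nt. The inner site was therefore not absent from CA1. The position near the annotated end was listed in 5 TC, 4 PC and 4 OC libraries, and in 2 CA1 libraries and 1 each of DG, CB and PFC. CA1 also stood apart at CD74, for which 7 CA1 libraries had a value but only 1 listed the position at the annotated start. The other CA1 values came from positions close to the start (5 CA1 libraries had a tag between 95 nt upstream and 113 nt inside) or deeper in the gene.

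**Figure D2:**
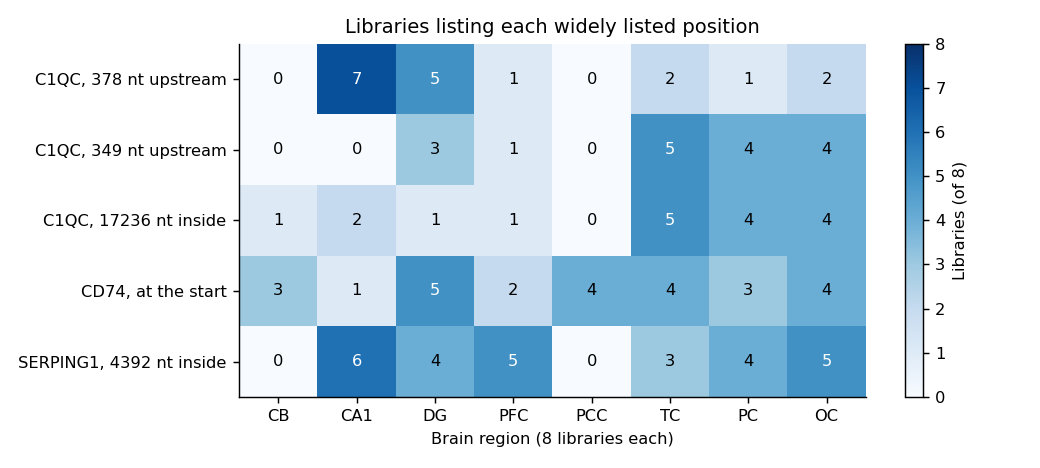
Number of libraries, out of 8 per region, that list each position found in at least 8 libraries (rows, named by gene and distance from the annotated start; columns, regions). Positions are exact nucleotides. CA1 lists the C1QC position 378 nt upstream in 7 libraries and the one 349 nt upstream in 0, although 20-yr-old males list the next nucleotide, 350 nt upstream, and the SERPING1 position is at 0 in CB and PCC.

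SERPING1 was the member whose level differed between the regions. It was listed in 1 of 8 CB libraries and in none of the 8 PCC libraries, while all other regions listed it in 6 to 8. In CB the only value was 34.97 TPM, in 20-yr-old females, from a position 67 nt inside the annotated start, and the position 4392 nt inside had no value in any CB or PCC library. In CA1 the SERPING1 level was 0 TPM at the lowest, 65.98 at the median and 187.52 at the highest, and in DG 0, 125.84 and 180.67 TPM. In each of these fields 6 of 8 libraries lay above every CB library. In PFC, where all 8 libraries listed the gene, the lowest, median and highest levels were 1.46, 91.29 and 260.33 TPM. In TC they were 0, 21.25 and 389.35 TPM, in PC 0, 100.44 and 356.56 TPM, and in OC 0, 139.32 and 470.61 TPM. Every region except PFC and PCC had at least 1 library at 0 and at least 1 with a value, so the CB libraries overlapped the others at 0.

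On the log2(TPM + 1) scale, the order of mean SERPING1 levels was OC, DG, PC, PFC, CA1, TC, CB and PCC. Neighbours in this order were compared by two-sided exact sign-flip tests over the 8 animal groups, 21 tests for the 3 genes. The smallest attainable p is 0.00781, and it is larger where groups tie. Adjusted over 21 tests, a single pair at that p does not fall under 0.05, so the tests cannot single out a step. No pair passed after adjustment, which does not show that neighbours were alike. The widest step lay between CB and the region ranked just above it, TC, whose mean was 3.42 ± 2.55 higher (SD of the differences, n = 8), with TC higher in 6 groups and lower in none (exact p = 0.0312, adjusted p = 0.656). The remaining groups tied at 0 TPM, so this was the smallest p that the pair could reach.

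In the limma fit over all 64 libraries with region and animal group as terms, SERPING1 was the only member called for any difference between the 8 regions (F = 8.49, adjusted p = 4.08e-05). Of the 6106 genes tested, 26.0% were called in this comparison, and SERPING1 ranked 76 by p. In CB against the other 7 regions its level was lower by 3.95 on the log2 scale (difference -3.95, SE 0.89, 95% confidence interval -5.73 to -2.17, limma adjusted p = 0.00463). In that contrast 2.23% of genes were called, 0.884% as higher and 1.34% as lower, and the median difference of all genes tested was -0.43. The CB difference of SERPING1 was -4.71 when the PCC libraries were left out (limma adjusted p = 0.0011). With the number of genes listed per library as a covariate it was -3.54 (limma adjusted p = 0.0178). When only positions within 500 nt of the annotated start were counted, it was 0.29 (limma adjusted p = 0.763) and the regional F was 1.96 (adjusted p = 0.155), but those positions hold 1.46% of the gene's signal.

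Absence or near absence from a whole region was uncommon among genes listed outside it at least as often as SERPING1, although no test was made. These genes include ones listed more often than SERPING1, such as CLU in every library. The shares therefore do not describe genes listed equally often, and PCC and CB were the regions with the fewest positions. Of 891 tested genes listed in at least 43 of the 56 libraries outside PCC, 5 (0.56%) had no value in any PCC library. They were SERPING1, JUNB, SDR39U1, PELP1 and ENSMMUG00000005759, named after their values were seen. Of 849 genes listed in at least 42 of the 56 libraries outside CB, 16 (1.88%) were listed in at most 1 CB library. Markers of endothelial cells and pericytes had a summed level of 0, 101.98 and 1252.33 TPM at the lowest, median and highest CB library, and of 0, 84.26 and 2122.29 TPM in PCC, against 0, 159.38 and 826.31 TPM in the remaining 48 libraries. Of the 14 such markers with a position, 9 were at 0 in all CB libraries and 9 in all PCC libraries. The number at 0 throughout was 8 in OC, 7 in PC, 6 in DG, 4 in PFC and 3 each in CA1 and TC. None of the 6 tested was called in any comparison by limma, in which 0% (age and sex) to 26.0% (any region) of all genes were called. Markers of meninges and fibroblasts had a median of 0 TPM in CB and in PCC, with a highest value of 120.9 TPM in CB and 12.35 TPM in PCC, against a median of 2.14 and a highest value of 1685.43 TPM elsewhere, and 5 of the 6 with a position were at 0 throughout CB. By region the median was 54.22 TPM in TC, 4.83 in PFC, 2.6 in CA1, 1.12 in OC and 0 in PC. In DG all 6 were at 0 in every library. The part of either set of markers in the SERPING1 result was not tested.

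**Figure D3:**
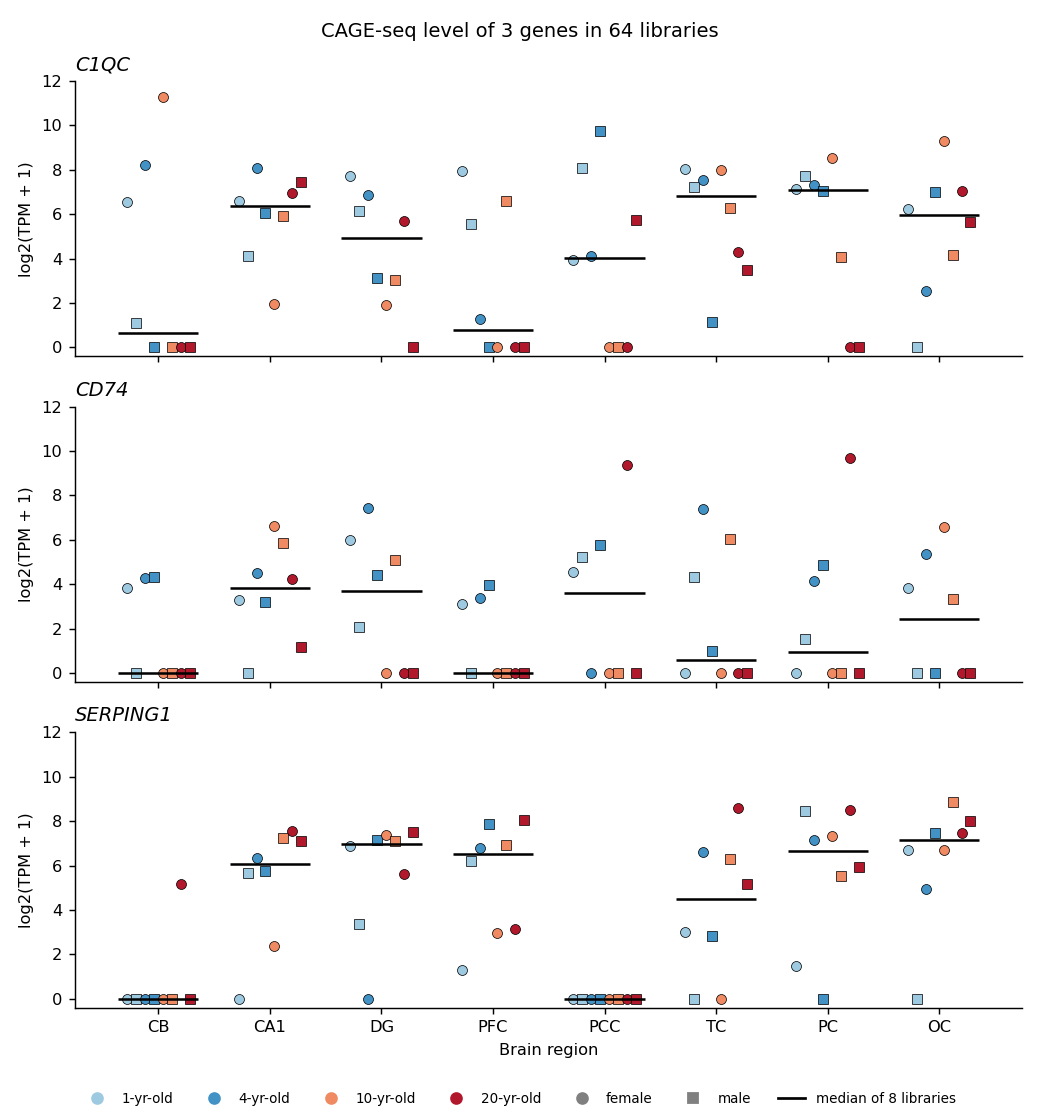
Level of C1QC, CD74 and SERPING1 in each of the 64 libraries (y axis, log2 of TPM + 1) by brain region (x axis). Color gives the age, circles are females, squares are males, and the bar is the median of 8 libraries. SERPING1 is at 0 in 7 of 8 CB and in all 8 PCC libraries, while C1QC and CD74 have libraries at 0 and with a value in most regions.

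C1QC was not called for a difference between regions. It was listed in all 8 CA1 and all 8 TC libraries, in 7 of 8 in DG and OC, 6 in PC, 5 in PCC and 4 each in CB and PFC. In CB the lowest, median and highest levels were 0, 0.59 and 2456.29 TPM, and in PFC 0, 0.72 and 245.42 TPM. In CA1 they were 2.91, 80.56 and 270.95 TPM, and in TC 1.25, 112.01 and 259.51 TPM. These ranges overlapped, although 4 of 8 libraries in each of CB and PFC had no C1QC value. In DG the levels were 0, 29.66 and 211.04 TPM, in PCC 0, 15.49 and 868.14 TPM, in PC 0, 135.34 and 372.58 TPM, and in OC 0, 62.34 and 631.67 TPM. The mean log2 levels ran from 5.90 in CA1 through TC, OC, PC, DG, PCC and CB to 2.68 in PFC. No step passed the exact tests (adjusted p = 1 for each), which could not have passed a single step on its own. By limma the regional F was 1.16 (adjusted p = 0.455), and the CB difference was -1.33 (SE 1.15, 95% confidence interval -3.64 to 0.98, adjusted p = 0.605). Without the CB library of 10-yr-old females, which held a position seen nowhere else, the CB difference was -2.52 (limma adjusted p = 0.341), and with only positions listed in at least 2 libraries it was -3.59 (limma adjusted p = 0.058).

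CD74 also showed no regional difference past the test. It was listed in 7 of 8 CA1 libraries and 5 of 8 DG libraries, in 4 each of PCC, TC, PC and OC, and in 3 each of CB and PFC. Its levels were low in CB (0, 0 and 18.97 TPM at the lowest, median and highest library) and in PFC (0, 0 and 14.82 TPM). CA1 had 0, 13.25 and 97.15 TPM and DG 0, 11.96 and 169.82 TPM. The hippocampal medians were thus above those of CB and PFC, within ranges that overlapped. PCC reached 668.17 TPM (median 11.34) and PC 820.9 TPM (median 0.93), each in 20-yr-old females, while TC reached 168.41 TPM (median 0.5) and OC 93.88 TPM (median 4.5). Mean log2 levels ran from 3.61 in CA1 to 1.31 in PFC, and no step between neighbours passed (exact sign-flip tests, adjusted p = 1 for each). These tests could not have passed a single step on its own. In limma the F was 0.74 (adjusted p = 0.699) and the CB difference -1.08 (SE 0.98, 95% confidence interval -3.04 to 0.89, adjusted p = 0.610).

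The hippocampal fields were next set against the 5 neocortical areas, and against each other. In hippocampus against neocortex 8.19% of the genes tested were called by limma and 7.98% of the genes tested were called higher, with a median difference of 0.55 over all genes. None of the 3 members was called. The difference was 1.19 for SERPING1 (SE 0.69, interval -0.20 to 2.58, limma adjusted p = 0.310), 1.03 for CD74 (SE 0.77, -0.50 to 2.57, adjusted p = 0.445) and 0.54 for C1QC (SE 0.90, -1.27 to 2.35, adjusted p = 0.776). In CA1 against DG 19.4% of genes were called and the median difference was 1.37, but again no member was called. C1QC differed by 1.58 (SE 1.53, interval -1.47 to 4.64, limma adjusted p = 0.476), CD74 by 0.48 (SE 1.30, -2.12 to 3.08, adjusted p = 0.820) and SERPING1 by -0.38 (SE 1.17, -2.73 to 1.98, adjusted p = 0.844). The intervals are wide enough to hold several-fold differences in either direction, and the sign of the CD74 difference turned under quantile normalization (-1.07, adjusted p = 0.760). For SERPING1 the difference counted only within 500 nt of the start, where few of its tags lie, was 1.46 (limma adjusted p = 0.0376). No DG library had a value there, and in this setting the gene passed the filter for testing only through CA1, where it is high. The CA1 libraries list more positions than those of DG, and under quantile normalization, which evens out the distributions, the median difference of all genes was 0.12 in CA1 against DG and 0.03 in hippocampus against neocortex. The calls were then 204 higher and 72 lower in CA1 against DG (1130 and 52 without it) and 127 higher and 21 lower in hippocampus against neocortex (487 and 13 without it).

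Other genes of these pathways were taken from lists that cover their known roles. Of 28 classical and alternative complement components, 10 had a position and 4 were tested. C3, the central component that all branches cleave, was higher in hippocampus by 2.61 (SE 0.53, limma adjusted p = 0.001) and higher in CA1 than in DG by 3.46 (SE 0.90, adjusted p = 0.00579), being listed in 8 of 8 CA1 libraries, 3 of 8 DG libraries and 1 CB library. CFD, the protease factor D of the alternative branch, was higher in CA1 than in DG by 2.62 (SE 0.68, limma adjusted p = 0.00519). It was listed in 9 libraries, 5 of them CA1 and 0 DG, so it passed the filter for testing only through CA1, where it is high. C1R, the protease that C1 inhibitor blocks, was listed in 23 libraries, none of them CB, with a CB difference of -1.99 (SE 0.94, limma adjusted p = 0.356), and C1S was listed in 7 libraries and not tested. Of all genes tested, 7.98% were called higher in hippocampus than in neocortex and 18.5% higher in CA1 than in DG. In CB against the other regions 0 of the 4 tested components were called by limma, against 2.23% of all genes. Their median difference was -1.4, against -0.43 over all genes.

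Among 27 complement regulators and receptors, 13 had a position and 6 were tested. SERPING1 was the only one called in CB, where 2.23% of all genes were called. CLU, a chaperone that also restrains the terminal complex, was listed in all 64 libraries and was higher in CA1 than in DG by 1.09 (SE 0.38, limma adjusted p = 0.0368), which is less than the median of 1.37 over all genes. The median CB difference of the 6 was -1.03. The C1q-like proteins of neurons share the globular domain of C1q but act at synapses. Of 9 such genes 8 had a position and 5 were tested, and in CB CBLN3 was higher by 9.02 (SE 0.28, limma adjusted p = 1.91e-33) and CBLN1 by 9.20 (SE 0.41, adjusted p = 2.05e-26), while C1QL2 was lower (difference -3.70, SE 0.98, adjusted p = 0.0264). CBLN1 and CBLN3 passed the filter for testing only through CB, where they are high.

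Of 39 genes of MHC class II presentation, 15 had a position and 7 were tested, and 0 were called in any of the 6 comparisons by limma, in which 26.0% (any region), 19.4% (CA1 against DG), 8.19% (hippocampus), 2.23% (CB), 0% (age) and 0% (sex) of all genes were called. CD74, with 34 libraries, was among the more widely listed of them. The class II chains themselves were sparse, with MAMU-DPA in 5 libraries, MAMU-DOB in 5, MAMU-DRB1 in 2 and MAMU-DMB in 1, and CIITA, the coactivator that drives class II transcription, was listed in 1 library. CTSB, a lysosomal protease, was listed in 55 libraries. Of 29 genes of MHC class I presentation, 9 had a position and 8 were tested. TAPBP, which holds class I molecules to the peptide transporter, was higher in hippocampus by 1.71 (SE 0.49, limma adjusted p = 0.0222). It was listed in 11 libraries, 6 of them CA1 and 1 DG, so it passed the filter for testing only through the hippocampal libraries, where it is high. PSME2, a proteasome activator subunit, was higher in CA1 than in DG by 3.14 (SE 0.98, limma adjusted p = 0.0207). Of 40 interferon response genes 16 had a position and 4 were tested, and 3 of the 4 were called in CA1 against DG. BST2 was higher by 4.29 (SE 1.30, limma adjusted p = 0.0169), ISG20 was higher by 2.01 (SE 0.64, adjusted p = 0.0232) and IFI6 was lower (difference -3.52, SE 1.17, adjusted p = 0.0294). ISG20 was also higher in hippocampus than in neocortex, by 1.20 (SE 0.38, limma adjusted p = 0.0383).

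Several microglial markers were called in the hippocampal fields. Of the 12 microglial markers with a position 8 were tested, and in CA1 against DG 4 were higher, namely FCER1G by 4.38 (SE 0.90, limma adjusted p = 0.00055), SPI1 by 3.56 (SE 0.85, adjusted p = 0.00256), CSF1R by 2.87 (SE 0.72, adjusted p = 0.00387) and GPR34 by 2.72 (SE 1.01, adjusted p = 0.0486). Over all genes 18.5% were called higher in that comparison, with a median difference of 1.37, and the median of the 8 markers was 2.33. CD68, a lysosomal membrane protein of macrophages, had a difference of -2.53 (SE 1.66, limma adjusted p = 0.277). SPI1 was also higher in hippocampus than in neocortex, by 1.61 (SE 0.50, limma adjusted p = 0.035). C1QC and CD74 were not called in CA1 against DG, and whether their differences depart from those of the markers was not tested. FCER1G and SPI1 were each listed in 8 of 8 CA1 libraries, and in 0 and 1 DG libraries. The CA1 libraries were thus enough to bring these genes past the filter for testing, in the field where they are high. Their calls, and the count of markers called, are to be read with that limit. The summed level of the 12 markers was 62.77, 172.86 and 214.39 TPM at the lowest, median and highest CA1 library and 0, 105.97 and 416.31 TPM in DG. Markers of border macrophages (5 with a position) and of blood cells (5 with a position) were each listed in at most 5 libraries, and none reached the filter for testing.

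With age, none of the 3 genes passed the adjusted test, as was the case for all 6106 genes tested (0% called by limma). C1QC was listed in 15, 14, 12 and 8 of 16 libraries at 1, 4, 10 and 20 yr, with medians of 94.47, 90.9, 16.38 and 5.05 TPM. Its group of positions around the annotated start was listed in 12, 12, 8 and 6 of 16 libraries, and the group near the annotated end in 12, 7, 6 and 6. CD74 was listed in 10, 14, 6 and 4 of 16 libraries, with medians of 5.41, 18.67, 0 and 0 TPM. SERPING1 was listed in 9, 10, 11 and 13 of 16 libraries, with medians of 1.63, 41.06, 61.76 and 99.18 TPM. C1QC medians were thus highest at 1 yr and SERPING1 medians at 20 yr. The median number of genes listed per library was 2907.5, 2517.5, 2521 and 2276 at the same ages.

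The ages were tested as the means of log2(TPM + 1) over the 8 regions in the 8 animal groups, 4 at 10 and 20 yr against 4 at 1 and 4 yr. C1QC averaged 3.67 ± 1.05 in the 10- and 20-yr-old groups and 5.45 ± 1.07 in the 1- and 4-yr-old groups (SD, n = 4 each). The older groups had means of 5.12 (10-yr-old females), 3.76 (10-yr-old males), 3.0 (20-yr-old females) and 2.79 (20-yr-old males), against 6.77, 5.00, 5.75 and 4.27 in the 1-yr-old females, 1-yr-old males, 4-yr-old females and 4-yr-old males. The classes overlapped only through the 10-yr-old females, who lay above the 4-yr-old males and the 1-yr-old males. The fitted difference was -1.78 (SE 0.55, 95% confidence interval -2.99 to -0.57, limma unadjusted p = 0.00768, adjusted p = 0.301). C1QC had a lower median at 10 and 20 yr in 6 of 8 regions and a higher one in CA1 and OC.

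SERPING1 averaged 4.89 ± 1.06 in the 10- and 20-yr-old groups and 3.31 ± 0.75 in the 1- and 4-yr-old groups (SD, n = 4 each). The older groups ranged from 3.34 to 5.76 and the younger from 2.42 to 3.98, overlapping through the 10-yr-old females at 3.34. The fitted difference was 1.58 (SE 0.58, 95% confidence interval 0.31 to 2.86, limma unadjusted p = 0.0193, adjusted p = 0.410). Its median was higher at 10 and 20 yr in 5 regions, lower in PFC, and equal at 0 in CB and PCC. In OC, for example, the 4 libraries of 10- and 20-yr-old animals held 103.12 to 470.61 TPM (median 215.52), against 0 to 176.7 TPM (median 66.59) at 1 and 4 yr. The position 4392 nt inside SERPING1 was listed in 5, 7, 7 and 8 of 16 libraries at 1, 4, 10 and 20 yr.

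CD74 averaged 1.81 ± 1.23 in the 10- and 20-yr-old groups and 3.18 ± 1.2 in the 1- and 4-yr-old groups (SD, n = 4 each), with a fitted difference of -1.37 (SE 0.65, 95% confidence interval -2.78 to 0.04, limma adjusted p = 0.536). Its listing was thin after 4 yr, with a value in 1 of 8 libraries of 20-yr-old males (1.28 TPM) and in 3 of 8 of 20-yr-old females, which include the 2 highest values of the gene. Without those PC and PCC libraries the difference was -1.92 (limma adjusted p = 0.573). CD74 had a lower median at 10 and 20 yr in 7 of 8 regions, with CA1 as the exception (37.43 TPM at 10 and 20 yr and 8.43 TPM at 1 and 4 yr).

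**Figure D4:**
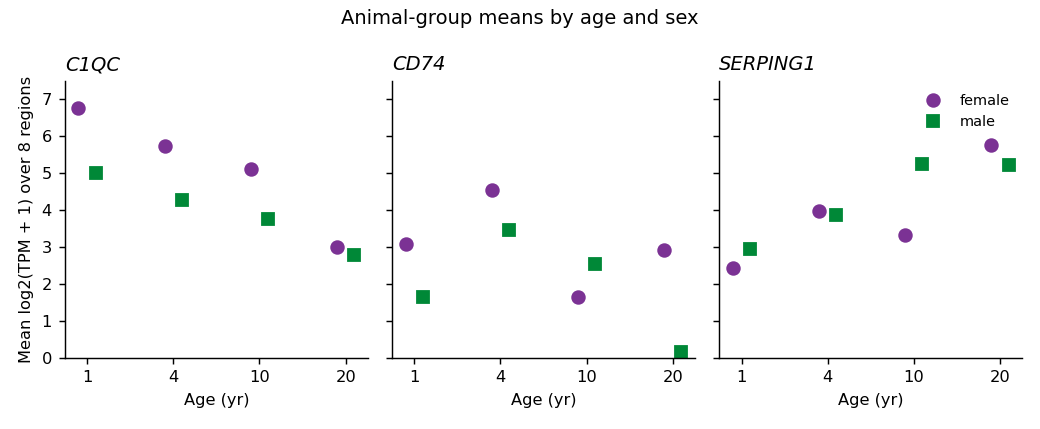
Mean log2(TPM + 1) over the 8 regions for each animal group (y axis) by age in yr (x axis, categories), with females as purple circles and males as green squares. C1QC lies between 6.77 in 1-yr-old females and 2.79 in 20-yr-old males, and SERPING1 between 2.42 in 1-yr-old females and 5.76 in 20-yr-old females.

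Over all genes the lowest limma adjusted p was 0.0875, and 585 genes (9.58%) had an unadjusted p under 0.05, to which C1QC and SERPING1 belonged. A limma model of the 64 libraries with the animal group as a random effect called 15 genes, none of them a member. The median age difference over all genes was -0.30, so that 2.21% of genes had a lower difference than C1QC and 99.8% a lower one than SERPING1. With the number of genes listed as a covariate the difference was -1.89 for C1QC (limma adjusted p = 0.826) and 2.32 for SERPING1 (adjusted p = 0.776). None of the 4 complement components, 6 regulators, 7 class II and 8 class I genes tested was called for age. Their median differences were -1.0, -0.18, -0.44 and -0.78. The summed microglial markers had a median of 132.62 TPM over the 32 libraries of 10 and 20 yr and of 172.86 TPM over the 32 libraries of 1 and 4 yr, with ranges of 0 to 803.15 and 0 to 592.41 TPM, and all 12 markers with a position had a value in each class. Their part in the C1QC and CD74 values was not tested.

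Females and males were compared in the same way, and 0 of 6106 genes (0%) were called by limma. C1QC was higher in the female than in the male group at every age, with means of 6.77 and 5.00 at 1 yr, 5.75 and 4.27 at 4 yr, 5.12 and 3.76 at 10 yr, and 3.0 and 2.79 at 20 yr. Averaged over ages it was 5.16 ± 1.59 in females and 3.95 ± 0.93 in males (SD, n = 4 each), with a fitted difference of 1.21 (SE 0.46, 95% confidence interval 0.18 to 2.24, limma unadjusted p = 0.0266, adjusted p = 0.924). Over the 5 neocortical regions alone the difference was 0.19 (limma adjusted p = 0.980). CD74 averaged 3.05 ± 1.19 in females and 1.95 ± 1.41 in males, a difference of 1.10 (SE 0.60, -0.25 to 2.45, limma adjusted p = 0.958) that was 0.55 without the PC and PCC libraries of 20-yr-old females (adjusted p = 0.999). SERPING1 averaged 3.88 ± 1.41 in females and 4.33 ± 1.11 in males, a difference of -0.45 (SE 0.51, -1.61 to 0.70, limma adjusted p = 0.977). Over all genes the lowest limma adjusted p for sex was 0.924, 321 genes (5.26%) had an unadjusted p under 0.05, and the random-effect model also called 0.

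**Figure D5:**
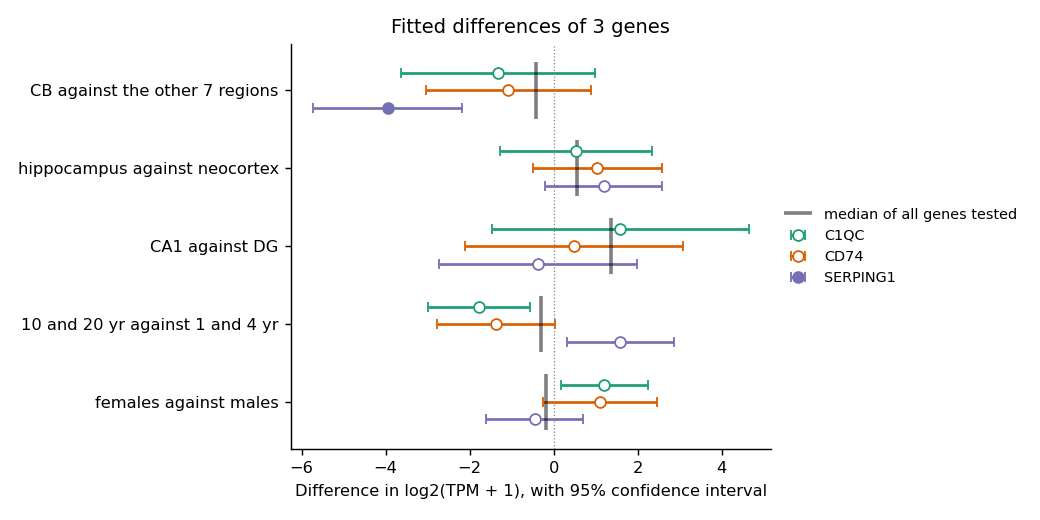
Fitted differences in log2(TPM + 1) of the 3 genes (x axis, points with 95% confidence intervals) in 5 comparisons (y axis), each as the first named group minus the second. Filled points have an adjusted p under 0.05, and the dark vertical bars are the medians of all 6106 genes tested. SERPING1 in CB (-3.95) is the only filled point.

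The genes most like each member over the 64 libraries were found by Pearson's r of log2(TPM + 1) among the other 6105 tested genes, as a description. For C1QC they were TMEM134 (r = 0.49), ENSMMUG00000018940 (0.48), PLEKHA8 (0.48), PNPLA7 (0.46) and ENSMMUG00000031593 (0.45). For CD74 they were ENSMMUG00000007734 (0.45), SNPH (0.44), UBL7 (0.41), ENSMMUG00000028702 (0.41) and RPS3 (0.41). For SERPING1 they were ENSMMUG00000016603 (0.53), CCDC34 (0.53), ACTR1A (0.52), ENSMMUG00000022321 (0.49) and POMGNT1 (0.49). No list gene of complement, antigen presentation or microglia was among them. The median r over all genes was 0.09 for C1QC, 0.01 for CD74 and 0.13 for SERPING1. Within regions the 5 values for SERPING1 were between 0.21 and 0.35, against 0.38 to 0.48 for those of C1QC and CD74.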

How the data were processed

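CAGE-seq of polyadenylated RNA was measured in 64 libraries (8 regions, 4 ages, 2 sexes). The authors filtered reads with FASTX-Toolkit, aligned them to MMUL 1.0 with TopHat2 (2 mismatches), kept unique alignments, took the 5′ ends of first reads as start sites, and clustered sites of at least 0.5 TPM that lay under 20 bp apart. The deposited TPM values are reads per library total (RPM) made by the authors with no length correction. Clusters were made within each sample, and each is given as 1 position of 1 gene. A cluster can therefore appear as several nearby positions that differ by library. Symbols matched 10069 of 13269 gene IDs.

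Gene levels were sums over positions. Genes with at least 1 TPM in 8 libraries (6106) were tested with limma 3.58.1 (R 4.3.3) on log2(TPM + 1), two-sided, with Benjamini-Hochberg adjustment and a call at an adjusted p under 0.05. Fold differences on this scale understate those of low genes. Regions were fitted over 64 libraries with region and animal group as terms, since the same animals gave all regions. Libraries of 1 animal group deviated together only slightly (mean r 0.011, against -0.002 for other pairs). Age and sex were fitted on the 8 animal-group means. Each combination of region, age and sex was sequenced once. In the region fits p-values measure the spread of libraries that is left after region and animal group. In the age and sex fits they measure the spread between animal groups. In 99 to 100% of cases per library, values under 8 TPM lay within 0.011 TPM of a multiple of 1 tag, but values under about 1 TPM are cut off, so no count model was used. Fits were tested on simulated data. Named genes were the 3 members, up to 4 called genes per list and comparison with the smallest p, the 5 most like each member, and positions in at least 8 libraries or with the highest sum. Members and lists were chosen with earlier results of these data known. Alternatives changed the pseudocount (0.25), filter, scaling, positions (within 500 nt, at least 2 TPM, in at least 2 libraries), block and libraries. Positions more than 500 nt apart were separate groups. Results on each list are counts of tested genes. Summaries and plots used Matplotlib 3.10.9, pandas 2.3.3, SciPy 1.17.1 and NumPy 2.4.6 under Python 3.11.15. Sequences and MMUL 1.0 exons were not used here.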

Additional observations from a re-analysis of the deposited data

Results flagged for a closer look

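In 11 of 36 groups of libraries or animal groups, 1 value of a member lay far from the others by Dixon's criterion. Chance gives about 1 of 20 only for normally distributed values. All 11 were in the 24 groups of TPM values, most of which hold values at 0 (in CB, SERPING1 had 1 value and was at 0 in the other 7 libraries), so that rate cannot be read against them. For C1QC these were 2456.29 TPM in the CB library of 10-yr-old females, 868.14 TPM in the PCC library of 4-yr-old males, 631.67 TPM in the OC library of 10-yr-old females and 245.42 TPM in PFC of 1-yr-old females. For CD74 they were 820.9 TPM in PC and 668.17 TPM in PCC of 20-yr-old females, 169.82 TPM in DG and 168.41 TPM in TC of 4-yr-old females, and 93.88 TPM in OC of 10-yr-old females. For SERPING1 they were 389.35 TPM in TC and 34.97 TPM in CB of 20-yr-old females. All 11 were the highest value of their region.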

How the results depend on the processing

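Of 333 alternative values for the members, 319 kept their direction and side of the threshold, 13 reversed and 1 lost its call. The CB call of SERPING1 held in all alternatives (-3.54 to -5.16, limma adjusted p 0.000523 to 0.0444) except with positions within 500 nt of the start, where the difference was 0.29. There the regional F was 1.96, CA1 against DG was 1.46 (adjusted p = 0.0376) and females against males was 0.32. In that setting SERPING1 passed the filter only through CA1. The sex difference of SERPING1 was also 0.02 with the number of genes as a covariate, and ranged from -0.78 to 0.03 with 1 animal group left out (0.03 without 10-yr-old females or males). CA1 against DG ranged from -1.33 to 0.56 for SERPING1 (0.56 without 1-yr-old and 0.29 without 10-yr-old females) and from -0.40 to 0.96 for CD74 (-0.40 without 10-yr-old and -0.06 without 20-yr-old females) in the same way. For CD74 it was -1.07 with quantile normalization, -0.96 within 500 nt and -1.16 with positions in at least 2 libraries. The cause was not tested.

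Of 111 alternative counts of called genes, 88 stayed within 1.5 times and 23 did not. Any regional difference gave 649 genes with quantile normalization, 988 within 500 nt, 807 with shared positions and 409 with the covariate, against 1590, and 1014 (without 4-yr-old males) to 1415 with 1 animal group left out. CB gave 45 within 500 nt and 67 with shared positions, against 136. Hippocampus against neocortex gave 755 without a filter, 148 with quantile normalization, 204 with shared positions and 123 with the covariate, against 500, and 243 (without 20-yr-old females) to 514 with a group left out. CA1 against DG gave 1838, 276, 386 and 187 in the same order, against 1182, and 747 (without 4-yr-old males) to 1307, with 784 without 1-yr-old and 777 without 20-yr-old females. Age gave 15 as a random effect, 1 in neocortex and 0 to 1 with a group left out (1 without 4-yr-old females or males), against 0. Quantile normalization gave 107 higher and 93 lower calls in CB and the covariate 101 and 52, against 54 and 82. With no replicate block 1530, 119, 508 and 1146 genes were called for regions, CB, hippocampus and CA1, and no call of a member changed. Shared positions, the covariate and the left-out libraries were chosen after seeing the data. Low levels are limited by the floor of the deposited table, near 1 TPM in libraries of any depth.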
